A study of Mus musculus with 6 samples.

Results

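The genes described here encode 6 G protein-coupled receptors that guide leukocytes to sites of infection and injury: the formyl peptide receptors Fpr1 and Fpr2, the complement anaphylatoxin receptors C5ar1, C5ar2 and C3ar1, and the chemerin receptor Cmklr1. They were taken by gene name from a table of 55736 genes, in which each name occurs on a single row. They had been chosen by their TPM in these same control and LPS libraries, so their differences between the groups are given as a description, without a test. RNA was sequenced from wild-type (WT) mouse bone marrow-derived macrophages, cells that grow out of marrow in culture, labelled as leukocytes. There were 3 control libraries, taken at 24 h, and 3 libraries from cells given 200 ng/ml lipopolysaccharide (LPS), the endotoxin of Gram-negative bacteria, also taken at 24 h. The LPS titles hold a number 500 without explaining it, and neither the age of the mice nor whether libraries came from separate cultures or animals is stated. The series title names CCL7, synovitis and rheumatoid arthritis, and all 6 libraries share the WT genotype.

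Formyl peptide receptors detect peptides that start with formylmethionine, which bacteria and mitochondria make, and are classically studied in neutrophils, where they trigger chemotaxis and the respiratory burst. Mouse FPR2 also binds host ligands such as serum amyloid A, cathelicidin and annexin A1, the last of which is known for dampening inflammation. The anaphylatoxins C3a and C5a are released when the complement proteins C3 and C5 are cut. C5AR1 signals through Gi proteins, whereas C5AR2 couples poorly to G proteins, recruits arrestins and is often called a decoy or modulating receptor. Chemerin, the ligand of CMKLR1, is a secreted protein made by the gene Rarres2 that proteases activate by trimming its end.

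Values are TPM, transcript abundances that are corrected for gene length and scaled to a fixed total per library, so levels can be compared between genes but the read depth is unknown. All 6 libraries of the table carried the macrophage markers looked for at 1 TPM or more, 12 of 12 genes in every library, and the list summed to between 27450 and 29025 TPM without LPS and between 36012 and 38527 TPM with it. Markers of mast cells with basophils and of lymphocytes summed to at most 0.67 TPM in any library, and 7 of 8 dendritic cell markers stayed under 1 TPM in all 6 libraries. Libraries of the same group had Spearman correlations of 0.983 to 0.987, and libraries of different groups 0.826 to 0.838. The median change of the 12440 tested genes, those reaching 1 TPM in 3 or more libraries, was −0.44 on the log2(TPM + 1) scale, and Saa3 and Fth1 together held 17.6% of TPM in LPS against 2.02% in control libraries. Changes are therefore also given relative to that median. In bulk RNA, fewer cells of a type and less RNA per cell cannot be told apart.

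Fpr1 and Fpr2 lie head to head on GRCm38 chromosome 17. Fpr1 (ENSMUSG00000045551, minus strand, 17876471 to 17883940) and Fpr2 (ENSMUSG00000052270, plus strand, 17887824 to 17893952) have 2 exons each in their longest coding transcript, with the coding sequence in a single exon, and their transcription starts are 3884 bases apart. Fpr3 (ENSMUSG00000079700, 17887852 to 17971677) starts inside the 5′ exon of Fpr2 and shares 48 exonic bases with it. C5ar2 (ENSMUSG00000074361, 16234585 to 16244154) and C5ar1 (ENSMUSG00000049130, 16246743 to 16259540) are also neighbours, both on the minus strand of chromosome 7 and separated by 2588 bases. C3ar1 (ENSMUSG00000040552) lies on chromosome 6 from 122847138 to 122856161 and Cmklr1 (ENSMUSG00000042190) on chromosome 5 from 113612354 to 113650426, both on the minus strand.

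The promoters of the head-to-head pair are shown because these 2 transcripts went from about 1 TPM to over 500 TPM, and that of C3ar1 because it was abundant in control libraries and lower with LPS. Each runs from 250 bases before to 50 bases after the RefSeq transcription start (RefSeq, GRCm38.p6), 5′ to 3′ on the strand of the gene, with capitals at matches to the motifs searched. Fpr1 is from chr17:17883890-17884189 (minus strand), Fpr2 from chr17:17887574-17887873 (plus strand) and C3ar1 from chr6:122856108-122856407 (minus strand).
Fpr1: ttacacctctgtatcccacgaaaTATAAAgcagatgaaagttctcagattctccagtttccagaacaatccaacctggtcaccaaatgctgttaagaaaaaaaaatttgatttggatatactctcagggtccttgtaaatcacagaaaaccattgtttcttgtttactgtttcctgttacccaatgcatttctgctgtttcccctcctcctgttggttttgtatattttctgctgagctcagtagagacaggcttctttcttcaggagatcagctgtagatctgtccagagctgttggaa
Fpr2: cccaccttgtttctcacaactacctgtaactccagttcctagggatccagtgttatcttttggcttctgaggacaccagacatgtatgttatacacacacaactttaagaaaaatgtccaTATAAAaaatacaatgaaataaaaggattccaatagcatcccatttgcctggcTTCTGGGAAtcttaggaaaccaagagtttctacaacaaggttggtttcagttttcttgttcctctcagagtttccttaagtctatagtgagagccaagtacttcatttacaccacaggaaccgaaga
C3ar1: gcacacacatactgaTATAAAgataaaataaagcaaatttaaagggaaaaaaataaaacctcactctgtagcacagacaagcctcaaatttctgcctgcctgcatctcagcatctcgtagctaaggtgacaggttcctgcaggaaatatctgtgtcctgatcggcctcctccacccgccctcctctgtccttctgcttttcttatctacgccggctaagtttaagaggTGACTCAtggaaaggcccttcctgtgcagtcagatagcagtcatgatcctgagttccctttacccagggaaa

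In these windows the capitals mark TATAAA in all 3 promoters, beginning at −227 from the start of Fpr1, at −130 for Fpr2 and at −235 for C3ar1. The other capitals are TTCNNNGAA, the interferon-activated GAS motif, at −77 in Fpr2, and TGANTCA, the AP-1 motif, at −22 in C3ar1. TATAAA was found in 13.6%, TTCNNNGAA in 8.30% and TGANTCA in 7.81% of 32851 promoters of the same length. The NF-kB motif, GGGA and TCC with 3 bases of any kind between them (4.59% of promoters), and the interferon-stimulated response element, GAAA and GAAA with 2 such bases between them (3.44%), were in none of the 7 promoters annotated for the 6 genes. TTGCNNAA for C/EBP (10.8%) and GAGGAAG for PU.1 (13.6%) were found, of the 6 genes, in promoters of C5ar2. All motifs were searched on both strands, and no capitals overlap. The promoters of Fpr1 and Fpr2 held 40.0% and 39.3% G and C, against a median of 52.7% over all promoters. A match is a run of letters and not a known site, and a missing match says only that these letters are not in the window.

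Formyl peptide receptors had the largest differences of the set. Fpr1 stood at 0.65, 0.72 and 0.84 TPM in the 3 control libraries, and at 649, 605 and 629 TPM in those given LPS. No control library reached 1 TPM, and every LPS library was at least 720 times as high as the highest control library. The means, 0.737 ± 0.0961 and 628 ± 22.0 TPM (SD, n = 3 each), differ 852-fold, and on the log2(TPM + 1) scale by 8.50 (SE 0.06), 8.95 above the median of all tested genes. Fpr1 passed the filter on low values only through its LPS libraries, so it had to differ. By level it went from rank 12983 to rank 209 among the 55736 genes.

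Fpr2 stood at 0.98, 1.84 and 1.20 TPM without LPS, and at 519, 517 and 504 TPM with it. All LPS libraries were far above all control libraries, of which control library 2 was the highest. With 2 control libraries at 1 TPM, Fpr2 also needed its LPS libraries to pass the filter. The means of 1.34 ± 0.447 and 513 ± 8.49 TPM differ 383-fold, with a log2 change of 7.80 (SE 0.13), 8.24 above the median. By size of rise Fpr1 ranked 10 and Fpr2 ranked 13 among the 12440 tested genes. Within each library the balance of the 2 transcripts also differed: Fpr1 over Fpr2 was 0.663, 0.391 and 0.700 in control and 1.25, 1.17 and 1.25 in LPS libraries. Fpr2 was thus the higher of the pair in all control libraries and Fpr1 in all LPS libraries, a comparison that does not depend on how libraries are scaled. The control ratios rest on values near 1 TPM, at an unknown read depth.

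**Figure D1:**
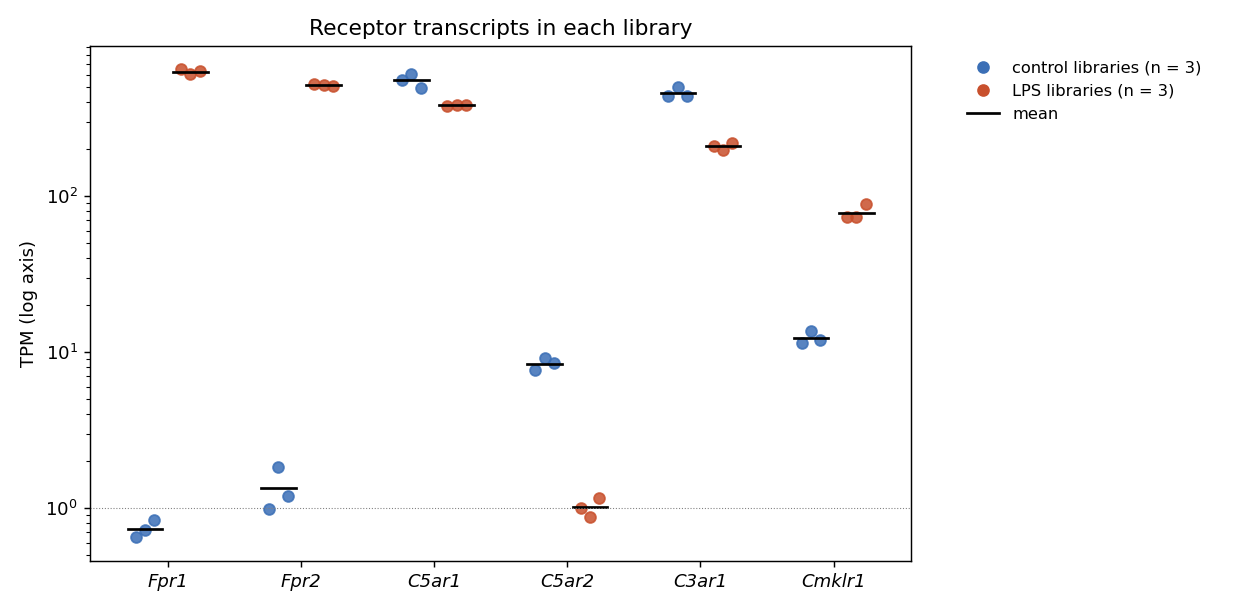
TPM of each of the 6 receptor genes in each library on a log axis, with control libraries in blue, LPS libraries in orange and a black bar at the mean of 3. Fpr1 and Fpr2 go from about 1 TPM to 628 and 513 TPM on average, C5ar2 falls to about 1 TPM, and the 2 groups of points do not overlap for any of the genes.

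The sources used here do not say how the authors divided reads shared by related genes, so the sequences were compared. The coding sequences of Fpr1 and Fpr2 were 66.6% identical, and only 1 of the 1275 stretches of 50 bases in Fpr1 transcripts occurred in transcripts of another gene. Of the 1295 such stretches of Fpr2, 408 (31.5%) occurred elsewhere, 368 of them in the pseudogene Gm5966 and 82 in Fpr3. Without LPS Gm5966 was listed at 0, and with LPS at 1.02, 0 and 1.61 TPM, beside the 504 to 519 TPM of Fpr2. Fpr3, whose coding sequence was 88.1% identical to that of Fpr2, went from 0.04, 0.34 and 0.14 TPM to 24.2, 23.0 and 18.4 TPM with LPS, a log2 change of 4.28 (SE 0.15). Like Fpr1, it was tested only through its LPS libraries and had to differ. It shares 89 of its 1219 stretches with other genes, 82 of them with Fpr2, and the part of shared reads in its value was not tested. The vomeronasal relatives Fpr-rs3, Fpr-rs4, Fpr-rs6 and Fpr-rs7 were listed at 0 in all 6 libraries.

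C5ar1, the signalling receptor for C5a, was the most abundant of the 6 transcripts in control libraries, with 551, 608 and 494 TPM. The LPS libraries had 378, 381 and 385 TPM, all below the lowest control library and much closer to each other than the control libraries were. The means were 551 ± 57.2 and 381 ± 3.93 TPM, 1.45-fold lower with LPS, and the log2 change of −0.53 (SE 0.07) was −0.08 relative to the median of all tested genes. After median-of-ratios scaling the change was −0.03 (SE 0.07), while quantile normalization left it at −0.50. The change of C5ar1 thus lay within 0.10 of the median on the first 2 scales and at −0.51 from it on the other.

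C5ar2, the receptor that binds C5a with little G protein signalling, was a minor transcript beside its neighbour. Its control libraries held 7.72, 9.14 and 8.46 TPM and its LPS libraries 1.0, 0.88 and 1.16 TPM, without overlap. The means of 8.44 ± 0.710 and 1.01 ± 0.140 TPM differ 8.33-fold, and the log2 change was −2.23 (SE 0.11), or −1.78 relative to the median. Its 3 LPS values stand at the level of the filter, where 2 of 3 libraries reached 1 TPM. C5ar1 over C5ar2 was 71.4, 66.5 and 58.4 in control libraries and 378, 432 and 332 in LPS libraries. The balance of the 2 C5a receptor transcripts thus differed in the same direction in all libraries. Dividing a library by a common factor leaves these ratios unchanged, and they were not computed under quantile normalization. Of the 3511 stretches of 50 bases in C5ar2, 4.39% occur in other genes, while C5ar1 and C3ar1 share none.

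C3ar1, the receptor for C3a, measured 437, 497 and 437 TPM without LPS and 208, 197 and 218 TPM with it. The LPS libraries were all lower, by 2.20-fold in the means (457 ± 34.8 and 208 ± 10.5 TPM). The log2 change was −1.13 (SE 0.07), −0.69 relative to the median, and −0.64 after median-of-ratios scaling. C5ar1 over C3ar1 was between 1.13 and 1.26 in control and between 1.77 and 1.93 in LPS libraries, so within every library C5ar1 was the higher, and more so with LPS.

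Cmklr1, the chemerin receptor, measured 11.4, 13.7 and 11.9 TPM without LPS and 73.2, 73.4 and 88.4 TPM with it. The groups did not overlap, and LPS library 3 stood above the other two. The means of 12.3 ± 1.18 and 78.3 ± 8.72 TPM differ 6.35-fold, with a log2 change of 2.57 (SE 0.10), 3.02 above the median, and rank 231 by size of rise. C3ar1 exceeded Cmklr1 by 36.4-fold to 38.3-fold in control libraries and by 2.47-fold to 2.85-fold in LPS libraries.

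Across the 6 genes the groups did not overlap for any, with 3 higher and 3 lower in LPS libraries. Over all tested genes 78.6% did not overlap, 17.3% higher and 61.4% lower, and since the genes were chosen with this contrast known nothing is read from the count. In control libraries the order by level was C5ar1, C3ar1, Cmklr1, C5ar2, Fpr2 and Fpr1. The values of C5ar1 and C3ar1 overlapped there across libraries (494 to 608 and 437 to 497 TPM), although C5ar1 was the higher within each, and the other neighbours in the order did not overlap. In LPS libraries the order was Fpr1, Fpr2, C5ar1, C3ar1, Cmklr1 and C5ar2, and no neighbours overlapped. Control library 2 gave the highest control value for 5 of the 6 genes. Without that library the log2 change of C5ar1 was −0.45.

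The make-up of the set differed between the groups. The summed TPM of the 6 transcripts was 1009, 1131 and 954 in control and 1828, 1774 and 1826 in LPS libraries. C5ar1 and C3ar1 together made up 97.8% ± 0.147 of that sum in control and 32.6% ± 0.503 in LPS libraries (SD, n = 3 each). Fpr1 and Fpr2 together made up 0.201% ± 0.0344 and 63.1% ± 0.939. Cmklr1 went from 1.20% ± 0.0592 to 4.33% ± 0.450 and C5ar2 from 0.820% ± 0.0618 to 0.0559% ± 0.00705. These shares are taken within a library and do not change when it is divided by a common factor, but a larger share of one transcript lowers that of the others.

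**Figure D2:**
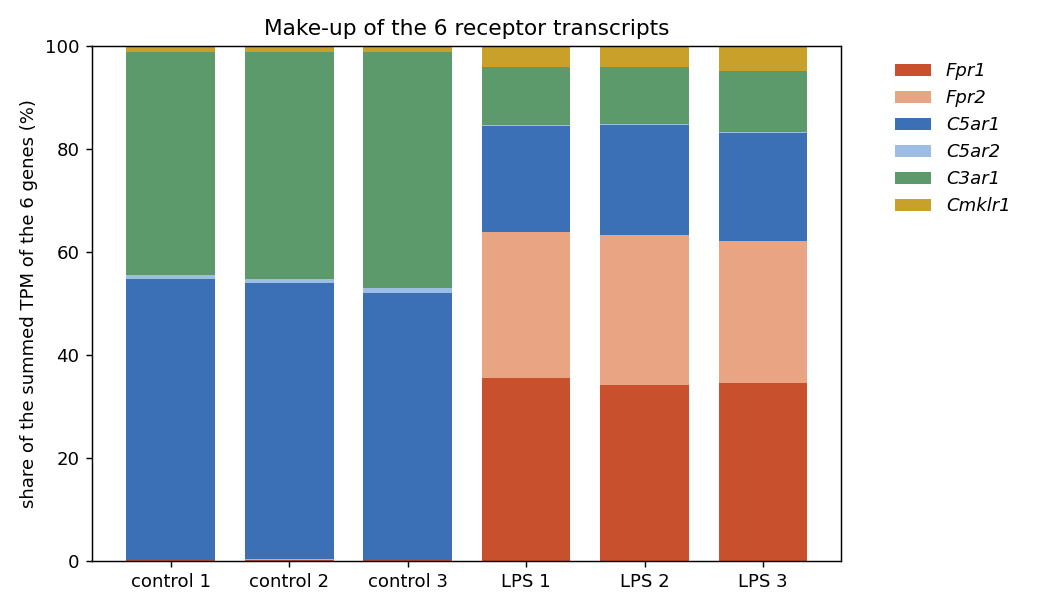
Share of each receptor transcript in the summed TPM of the 6 genes, in percent, for each library. In the 3 control bars C5ar1 and C3ar1 hold 97.8% on average, and in the 3 LPS bars Fpr1 and Fpr2 hold 63.1%.

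The 4 scales compared were TPM as deposited, Saa3 and Fth1 left out, quantile normalization and median-of-ratios scaling. Each of the 6 genes kept the sign of its change on all of them, though C5ar1 came near 0. For C5ar1 the change ranged from −0.53 to −0.03, the last of which lies within its standard error of 0. Over the same scales C5ar2 ranged from −2.23 to −1.69 and C3ar1 from −1.13 to −0.64. For Fpr1 the range over these 4 scales was 8.50 to 8.84 and for Cmklr1 it was 2.57 to 3.05. Median-of-ratios scaling raises these changes by construction, with divisors of 1.18 to 1.22 for control and 0.835 to 0.864 for LPS libraries.

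**Figure D3:**
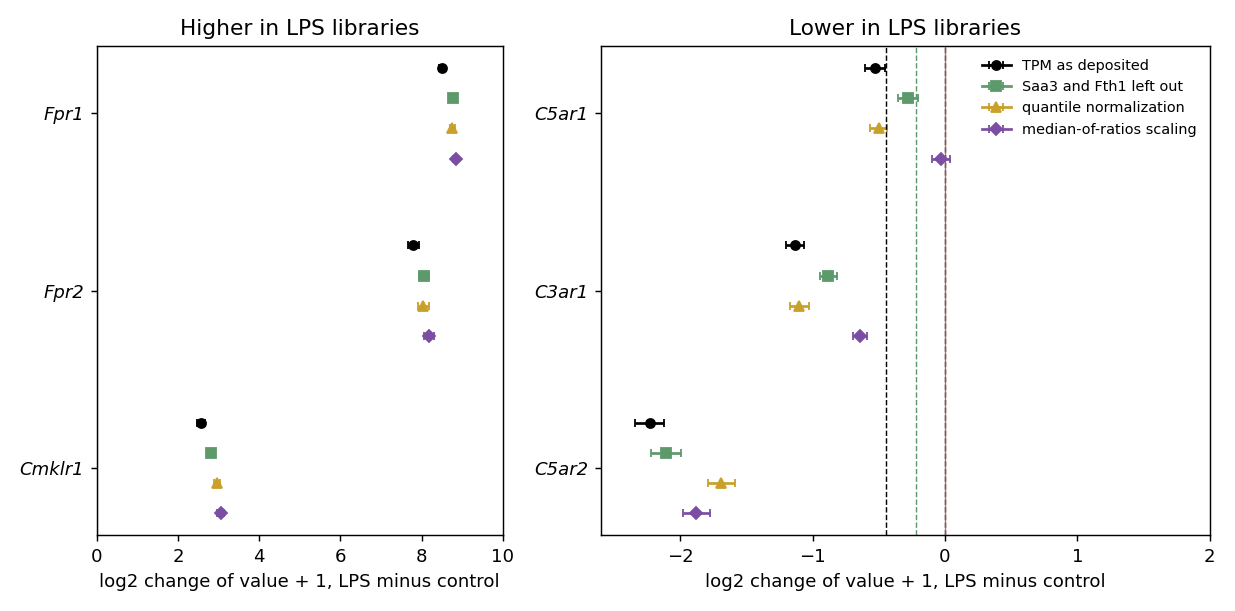
Log2 change of each receptor gene (LPS minus control, of the value + 1) with its standard error under 4 scalings, the genes higher in LPS libraries on the left and those lower on the right, on different axes. Dashed lines on the right mark the median change of all tested genes under each scaling, −0.44 on TPM as deposited, and C5ar1 lies within 0.10 of that line except under quantile normalization.

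Neutrophils, another marrow cell and the classical site of formyl peptide receptors, were looked for with 15 markers. The list summed to between 68.0 and 74.5 TPM without LPS and between 223 and 244 TPM with it. Ly6g, Prtn3 and Retnlg were listed at 0 in all 6 libraries, 9 of the 15 markers stayed under 1 TPM in all of them, and Elane and Mpo were listed at 0 in every LPS library. Of the 4 tested markers, Camp entered the test only through its LPS libraries, and all 4 were called higher with LPS by limma: S100a8 (4.33 ± 1.07 to 79.9 ± 8.68 TPM), Csf3r (31.3 ± 1.27 to 109 ± 4.65 TPM), Camp (0, 0.17 and 0 TPM to 4.19, 3.67 and 3.12 TPM) and Mmp8 (33.2 ± 2.51 to 40.0 ± 4.14 TPM, limma adjusted p = 0.0350). The last call was lost without control library 1 or 3 and without LPS library 1 or 3, with adjusted p between 0.086 and 0.108. Csf3r, the receptor for granulocyte colony-stimulating factor, is also known in macrophages. The part of other cells in the levels of Fpr1 and Fpr2 was not tested.

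**Figure D4:**
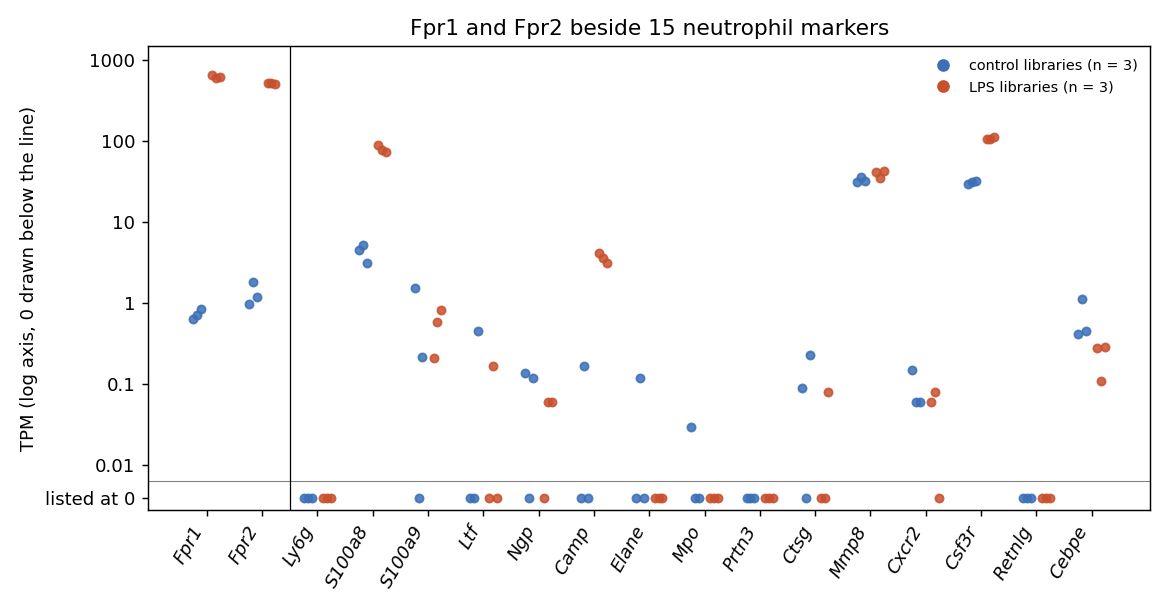
TPM of Fpr1 and Fpr2 (left of the line) and of 15 neutrophil markers in each library on a log axis, with values listed at 0 drawn below the grey line, control libraries in blue and LPS libraries in orange. Fpr1 and Fpr2 stand at 504 to 649 TPM in LPS libraries, and 9 of the 15 markers stay under 1 TPM in every library. The 4 tested markers, S100a8, Csf3r, Camp and Mmp8, were called higher with LPS by limma.

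The genes around these receptors were taken from 8 lists of ligands, processing enzymes and signalling genes, chosen with earlier results of these data known. Their calls and p-values come from the same libraries and are no independent support. Of their 90 genes 58 were tested, and limma called 19 higher and 29 lower with LPS at an adjusted p under 0.05, where 16.3% of all tested genes were called higher and 59.8% lower. After median-of-ratios scaling the calls were 29 higher and 19 lower. Of the 58 genes, 6 had no control library at 1 TPM and so entered the test only through LPS libraries, where they had to differ, and 2 had no LPS library at that level. Cfb, with 1 control library at 1 TPM, also needed its LPS libraries to pass the filter. The median change of the 58 genes was −0.27, beside −0.44 for all tested genes.

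Ligands of formyl peptide receptors parted in direction. Among 5 tested genes limma called 3 higher and 2 lower (3 and 1 with median-of-ratios scaling), where 16.3% of all tested genes were called higher and 59.8% lower. Their median change was 2.14, beside −0.44 for all tested genes. Of the 3 called higher, Saa1 and Camp entered the test only through their LPS libraries, and the median is the value of Camp. Serum amyloid Saa3 rose from 12.8, 7.99 and 12.2 TPM to a mean of 100091 ± 5882 TPM (adjusted p = 6.84e-09 by limma), and Saa1 went from a listed 0 to 8.54, 8.36 and 7.65 TPM. The cathelicidin gene Camp reached a mean of 3.66 TPM. Anxa1, which encodes annexin A1, measured 659, 703 and 630 TPM without LPS and 132, 125 and 124 TPM with it. It fell 5.22-fold in the means (log2 change −2.37, SE 0.05, limma adjusted p = 4.36e-08), or −1.93 relative to the median. Hebp1, the source of a peptide ligand, fell from 36.6 ± 3.76 to 26.3 ± 1.23 TPM, which is −0.01 relative to the median, and was not called after median-of-ratios scaling (log2 change 0.02). Cathepsin G gene Ctsg stayed under 1 TPM in all libraries, and Saa2, listed at 0 without LPS and at 1.91, 2.16 and 0.72 TPM with it, was too low to be tested.

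Of the complement genes that feed the anaphylatoxin receptors, limma called all 4 tested genes higher, with a median change of 3.50, while the source of C5a was nearly absent. Over all tested genes 16.3% were called higher, and the median change was −0.44. C2 entered the test only through its LPS libraries. Cfb, with 1 control library at 1 TPM, also needed its LPS libraries to pass the filter. C3, which yields C3a, measured 7.98, 11.9 and 8.26 TPM without LPS and 403, 394 and 437 TPM with it, a log2 difference of 5.33 (SE 0.14, limma adjusted p = 7.38e-08). Cfb, the protease subunit of the alternative pathway convertase, rose from 0.840 ± 0.724 to 3371 ± 39.4 TPM and properdin gene Cfp, which stabilizes that convertase, from 274 ± 21.8 to 879 ± 25.9 TPM. C2 had means of 0.633 ± 0.403 TPM without and 2.61 ± 0.268 TPM with LPS. The C5 gene, named Hc in the mouse, was listed at 0 without LPS and at 0.38, 0.01 and 0.17 TPM with it, beside 378 to 385 TPM of C5ar1. C3 thus rose in the libraries where C3ar1 was lower. Cfd was listed at 0 in all 6 libraries.

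Inactivators were mixed. Among 5 tested genes limma called 2 higher and 3 lower (3 and 2 with median-of-ratios scaling), where 16.3% of all tested genes were called higher and 59.8% lower. Their median change was −0.20, beside −0.44 for all tested genes. Carboxypeptidase D gene Cpd rose from 76.1 ± 5.55 to 203 ± 4.18 TPM, and Cd55, which speeds the decay of convertases and entered the test only through its LPS libraries, had 0.483 ± 0.225 and 8.34 ± 0.425 TPM. Cd59a, which blocks the membrane attack complex, fell from 12.2 ± 0.182 to 6.47 ± 0.0987 TPM. Cr1l had 77.9 ± 2.61 and 68.0 ± 4.67 TPM, a fall (adjusted p = 0.0222) that turned to a rise of 0.30 after median-of-ratios scaling and was lost without control library 1 or 2 or LPS library 1 or 3. Carboxypeptidase N, the plasma enzyme that trims C3a and C5a, had its genes Cpn1 and Cpn2 under 1 TPM in all libraries.

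Chemerin itself was hardly measured. Rarres2 lay at 0.03 to 0.14 TPM without LPS and at 0.06 to 0.11 TPM with it, and the groups overlapped, while Cmklr1 went from 12.3 to 78.3 TPM. The 4 tested protease genes fell on TPM as deposited, with a median change of −1.12, and 2 of them after median-of-ratios scaling. Over all tested genes the median change was −0.44 and 59.8% were called lower. Plau, urokinase, fell from 69.8 ± 4.49 to 12.2 ± 1.13 TPM and Ctsk, cathepsin K, from 10.9 ± 0.709 to 2.87 ± 0.202 TPM. Ctsl and Ctss, cathepsins L and S, fell to 1092 ± 107 and 2968 ± 50.6 TPM, calls that median-of-ratios scaling removed (log2 changes −0.12 and 0.06).

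Related attractant receptors did not move as a block, with 2 of 4 tested genes called higher, 1 called lower and 1 not called. Their median change was 0.86, beside −0.44 for all tested genes, of which 16.3% were called higher and 59.8% lower. Ccrl2, which binds chemerin without known signalling, rose from 7.08 ± 1.35 to 22.2 ± 1.96 TPM. Ltb4r1, a leukotriene B receptor gene that entered the test only through its LPS libraries, had 0.343 ± 0.144 and 4.52 ± 0.697 TPM. Ptafr, the receptor for platelet-activating factor, fell from 75.2 ± 4.61 to 29.96 ± 1.28 TPM (log2 change −1.30, SE 0.06, limma adjusted p = 1.60e-06). Cysltr1 had 13.7 ± 0.830 and 15.9 ± 1.72 TPM (adjusted p = 0.0949) and was called higher with median-of-ratios scaling (limma adjusted p = 0.000703). Gpr1, the second chemerin receptor gene, was listed at 0 in all libraries, and the neutrophil chemokine receptor genes Cxcr1 and Cxcr2 stayed under 1 TPM.

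Among 21 tested G protein subunits and effectors limma called 6 higher and 11 lower (10 and 7 with median-of-ratios scaling), where 16.3% of all tested genes were called higher and 59.8% lower. Their median change was −0.34, beside −0.44 for all tested genes. The largest rises were in Rac2, a GTPase of the NADPH oxidase (206 ± 73.8 to 652 ± 15.96 TPM, with control library 1 at 291 TPM above the other two), in Pik3r6, a regulatory subunit of PI3K gamma (13.9 ± 1.20 to 31.4 ± 2.17 TPM), and in Gng12 (86.6 ± 5.51 to 183 ± 5.44 TPM). The largest falls were in Gnb4 (8.88 ± 0.476 to 2.35 ± 0.654 TPM), Plcb2 (25.6 ± 0.926 to 12.4 ± 0.588 TPM) and the adenylate cyclase gene Adcy7 (148 ± 8.37 to 77.6 ± 3.10 TPM). Of 14 tested genes of receptor desensitisation, arrestins, receptor kinases and RGS proteins, 1 was called higher and 8 lower (5 and 6 with median-of-ratios scaling). Their median change was −0.62, beside −0.44 for all tested genes, of which 16.3% were called higher and 59.8% lower. Rgs2, which speeds the shut-off of G alpha subunits, fell from 79.5 ± 1.98 to 4.36 ± 0.746 TPM (log2 change −3.92, SE 0.10, limma adjusted p = 7.87e-08), Rgs10 from 347 ± 13.2 to 77.2 ± 1.31 TPM and Rgs1 from 67.7 ± 8.31 to 19.2 ± 1.26 TPM. The rise was that of Rgs14, from 23.9 ± 1.46 to 31.1 ± 0.504 TPM.

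**Figure D5:**
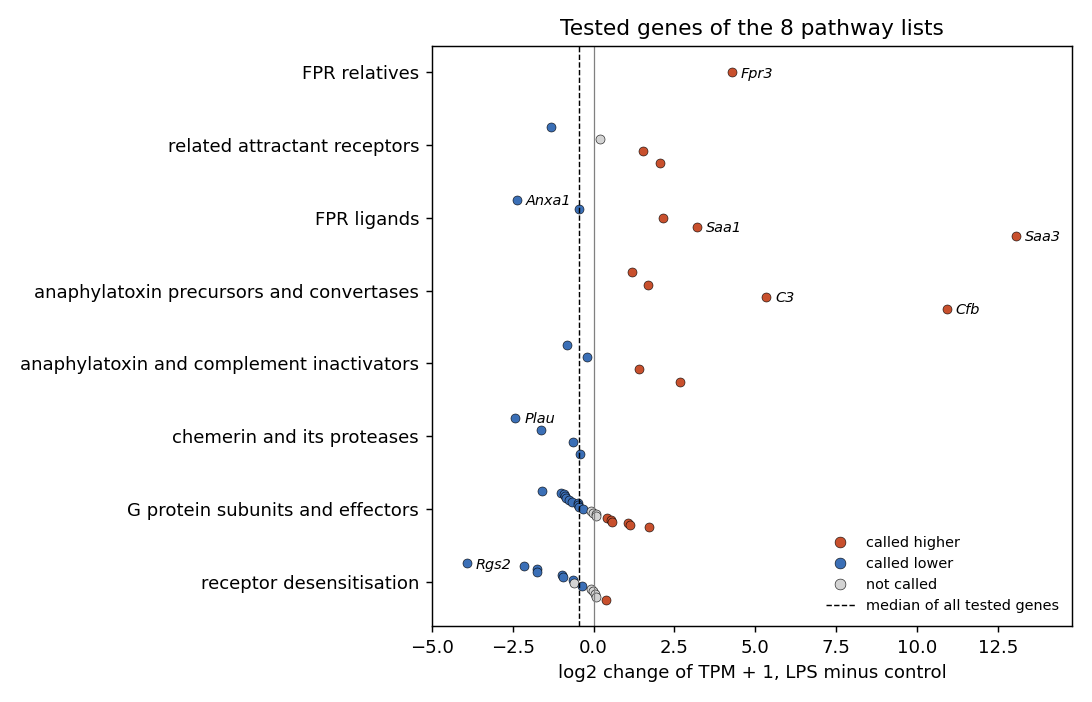
Log2 change of TPM + 1 (LPS minus control) of the tested genes in the 8 lists, with 1 gene left out, orange where limma called it higher, blue where lower and grey where not called, with the median of all tested genes, −0.44, as a dashed line. Names are given for changes above 3 or below −2.2, where Saa3 and Cfb are farthest to the right and Rgs2 farthest to the left.

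The transcripts most like each receptor were found by the smallest Euclidean distance in log2(TPM + 1) over the 6 libraries, which joins genes of like level and like change. The nearest to Fpr1 were Slpi (distance 0.942), Fpr2 (0.957) and Ly6i (0.990), and the nearest to Fpr2 were Slpi (0.648), Fpr1 (0.957) and Ptges (1.34). Slpi, a secreted protease inhibitor, went from 1.30 ± 0.756 to 557 ± 18.1 TPM with LPS. Those nearest to Cmklr1 were 1600014C10Rik (0.130), Jak2 (0.277) and Samsn1 (0.502). Closest to C5ar1 came Plin2 (0.157), to C3ar1 Myo1f (0.140) and to C5ar2 Nlrc3 (0.261). Neighbours on the chromosome that are no receptors were low beside Fpr1, whose left neighbour Has1 went from 0.153 ± 0.0681 to 1.71 ± 0.242 TPM. Foxj2 beside C3ar1 had 20.4 ± 1.65 and 10.5 ± 0.446 TPM, and Dhx34 beside C5ar2 had 24.7 ± 1.83 and 11.5 ± 1.19 TPM. Necap1, on the other side of C3ar1, had 44.9 ± 1.58 and 26.0 ± 0.993 TPM. Inafm1 beside C5ar1 had 1.48 ± 0.246 and 1.31 ± 0.475 TPM. Beside Cmklr1, Wscd2 had means of 0.08 and 0.483 TPM, and 1700069L16Rik was listed at 0. Of all tested genes, 61.4% were lower with LPS without overlap.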

How the data were processed

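The deposited table holds TPM values made by the authors, in 2 decimals, for 55736 genes in 3 control and 3 LPS libraries. It also holds the authors' group means, which equal the library means within 3.33e-05 TPM, and a gene length (another unit, bases), which entered no test. Per the submitters' processing notes, Bowtie 0.12.2 and the builds mm8 and mm9 were named, with no role given. The TPM tool, annotation and strand setting: not given in the sources used here. TPM keeps no read depth, so no counting error is given, and as its total is fixed, genes that take a larger share lower all others.

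The 12440 genes reaching 1 TPM in 3 or more libraries entered limma 3.58.1 in R 4.3.3 (lmFit and eBayes with a trend) on log2(TPM + 1), two-sided. P-values were adjusted by Benjamini-Hochberg across the 12440 genes, with calls at 0.05. Fold changes on this scale understate those of low genes. The script was tested on simulated data in which few genes changed. These data differ from that setting, as 76.1% of tested genes were called. P-values set the group difference against the spread between libraries of a group, moderated across genes. That spread may be technical, and an exact permutation test of 3 against 3 libraries cannot go below 0.1. The members and lists were chosen with earlier results of these data known, so members have no test. The p-values of list genes carry the same limit. In the lists of ligands, precursors, proteases and relatives any gene could be named, and in the other 3 the 3 largest rises and falls among called genes. Likeness was the Euclidean distance over the 6 libraries, and the nearest coding gene on each side was taken as neighbour. Positions are from GENCODE M21 (GRCm38), matched by identifier (93.4% of identifiers), and promoters from RefSeq (GRCm38.p6), matched by symbol for all 6 genes. Coding sequences were aligned globally with Biopython 1.88. Alternatives were another pseudocount, filter, scaling or variance model, Saa3 and Fth1 left out, each library left out and the replicate number as a block. Of the inactivators, 1 counted in its list is not reported here.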

Additional observations from a re-analysis of the deposited data

How the results depend on the processing

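Under another pseudocount, the other scalings, the block and each library left out, all 6 receptor genes kept the sign of their change. That of C5ar1 came within its standard error of 0 after median-of-ratios scaling. The other filters and the fit without a trend were run on gene calls and not on these changes. With a pseudocount of 0.1 in place of 1 the log2 changes were 9.56 for Fpr1, 8.52 for Fpr2 and −2.94 for C5ar2. After median-of-ratios scaling they were 8.84 for Fpr1, 8.18 for Fpr2, −0.03 for C5ar1, −1.88 for C5ar2, −0.64 for C3ar1 and 3.05 for Cmklr1. Quantile normalization gave 8.76 for Fpr1, −1.69 for C5ar2 and 2.96 for Cmklr1, and leaving out Saa3 and Fth1 gave 8.77 for Fpr1, −0.28 for C5ar1, −2.11 for C5ar2, −0.88 for C3ar1 and 2.82 for Cmklr1. With each library left out in turn the ranges were 8.46 to 8.54 for Fpr1, 7.68 to 7.94 for Fpr2, −0.60 to −0.45 for C5ar1, −2.28 to −2.18 for C5ar2, −1.17 to −1.07 for C3ar1 and 2.48 to 2.64 for Cmklr1. Over all tested genes 2028 were called higher and 7441 lower, against 4167 and 4181 after median-of-ratios scaling and 4029 and 4257 under quantile normalization. In the 8 lists 29 genes were called higher and 19 lower after median-of-ratios scaling, where TPM as deposited gave 19 and 29. Without any one library these counts were 19 to 20 and 27 to 29, and 1899 to 2012 and 7051 to 7260 over all genes. These scalings move the median of all genes by construction. Of the 35 listed genes named with a test, the changes that turned were those of Hebp1 (0.02), Ctss (0.06) and Cr1l (0.30) after median-of-ratios scaling, and that of Cr1l also under quantile normalization (0.04) and without Saa3 and Fth1 (0.05). Same-numbered libraries showed no sign of pairing: their deviations from the group means correlated at 0.0744, −0.151 and 0.0765 over genes. Differently numbered libraries gave −0.192 to 0.119. With 3 libraries in each group these values cannot decide whether the libraries were paired. With the replicate number as a block 1993 genes were called higher and 7304 lower, the changes of the receptor genes were as in the fit without it (Fpr1 8.50), and of the genes named the call of Mmp8 was lost (adjusted p = 0.075).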

Other observations

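S100a8 and S100a9, whose proteins form a heterodimer abundant in neutrophils, parted in these libraries. S100a8 measured 4.6, 5.24 and 3.16 TPM without LPS and 89.6, 77.1 and 72.9 TPM with it, while S100a9 measured 1.56, 0 and 0.22 TPM without and 0.21, 0.59 and 0.83 TPM with LPS. Cebpe, a granulocyte transcription factor, stood at 0.42, 1.13 and 0.46 TPM without LPS and at 0.28, 0.11 and 0.29 TPM with it.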
